A study of Mus musculus with 12 samples.

Results

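The nuclear genes of oxidative phosphorylation were taken by symbol: those for the Nduf, Sdh, Uqcr, Cox and Atp5 subunits, with the Ndufaf assembly factors left out. The rule found 84 genes among 23238 symbols, 37 by symbol in complex I, 4 in complex II, 8 in complex III, 18 in complex IV and 17 in complex V. The study profiled RNA of cells enriched from mouse meninges with magnetic beads as lymphatic endothelium, and its title concerns DSCR1, the product of Rcan1, in amyloid pathology. The 12 libraries form 3 groups of 4 by title, SJL_B6, AD_B6 and AD_TG. Every sample is labelled C57BL/6, meninge and 20 weeks of age, and the labels do not spell out the title abbreviations or give a transgene, its promoter or a treatment. Of these groups, AD_B6 and SJL_B6 differ by the first part of the title and AD_TG and AD_B6 by the second, and AD_TG and SJL_B6 differ by both, so those parts cannot be told apart in that last comparison. Material came from 3 to 4 mice per strain, and nothing in the labels ties a library to its own animal. The p-values therefore describe spread among these libraries alone, which may be technical.

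Oxidative phosphorylation takes place in the inner mitochondrial membrane. Complexes I and II pass electrons from NADH and succinate to ubiquinone, complex III hands them to cytochrome c, complex IV reduces oxygen, and complex V uses the proton gradient to make ATP. Most subunits are encoded in the nucleus and a small set in mitochondrial DNA, and several complex IV subunits exist as paired isoforms made in different tissues. None of the 13 mitochondrially encoded genes was among the symbols, so only the nuclear side was measured. Not every symbol is a subunit of the complex it is named for: Ndufa4 is now known as a subunit of complex IV, Cox7a2l takes part in joining complexes, and Atp5s and Atp5sl are not core subunits of ATP synthase.

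Unless another unit is given, values are the deposited log2 values, which are log2(x + 1) of scaled amounts. The step between low values put the depth at 3908087 to 9564598 estimated reads per library, and a value of 10 stood for 566 to 1511 of them. Genes with at least 1 read ran from 8748 in AD_B6 replicate 3, the lowest, to 12217. AD_B6 replicate 3 stood apart: 7.79% of its values for genes with a mean of 8 or more lay below 6, against 0.636 to 3.15% in the other libraries. The lymphatic markers were uneven: Prox1, the transcription factor that defines lymphatic endothelium, had reads in 2 of 12 libraries and Flt4 in 6, whereas Lyve1 had reads in 11 and Pdpn in 12. Ttr, the choroid plexus transthyretin gene, averaged 17.41 ± 1.90 (SD, n = 12). In bulk RNA, fewer cells of a type and less RNA per cell cannot be told apart.

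The oxidative phosphorylation genes had reads in more of the libraries than most genes did, at levels that were not matched. Reads were present in all 12 libraries for 73 of the 84 genes (86.9%), against 4950 of 23238 symbols (21.3%) and 4941 of the 11955 features tested (41.3%). By complex these were 34 of 37 genes of complex I, 4 of 4 of complex II, 8 of 8 of complex III, 12 of 18 of complex IV and 15 of 17 of complex V. Single libraries had reads for 77 to 81 of the genes. AD_B6 replicate 3, with the fewest genes detected, still had reads for 77 of the 84. Cox7b2 and Cox8c, both known mainly from testis, had no read in any library, a count that allows up to 3 reads in each. This limit and the depth above cover counting error only.

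The 84 genes together made up 1.51 to 2.62% of the linear total of a library. In SJL_B6 the share covered that whole range, in AD_B6 it was 1.97 to 2.5% and in AD_TG 1.65 to 2.46%, so the groups overlapped. Complex I took 0.500 to 0.907% of a library, complex IV 0.398 to 0.752%, complex V 0.397 to 0.650%, complex III 0.127 to 0.236% and complex II 0.0628 to 0.113%.

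**Figure D1:**
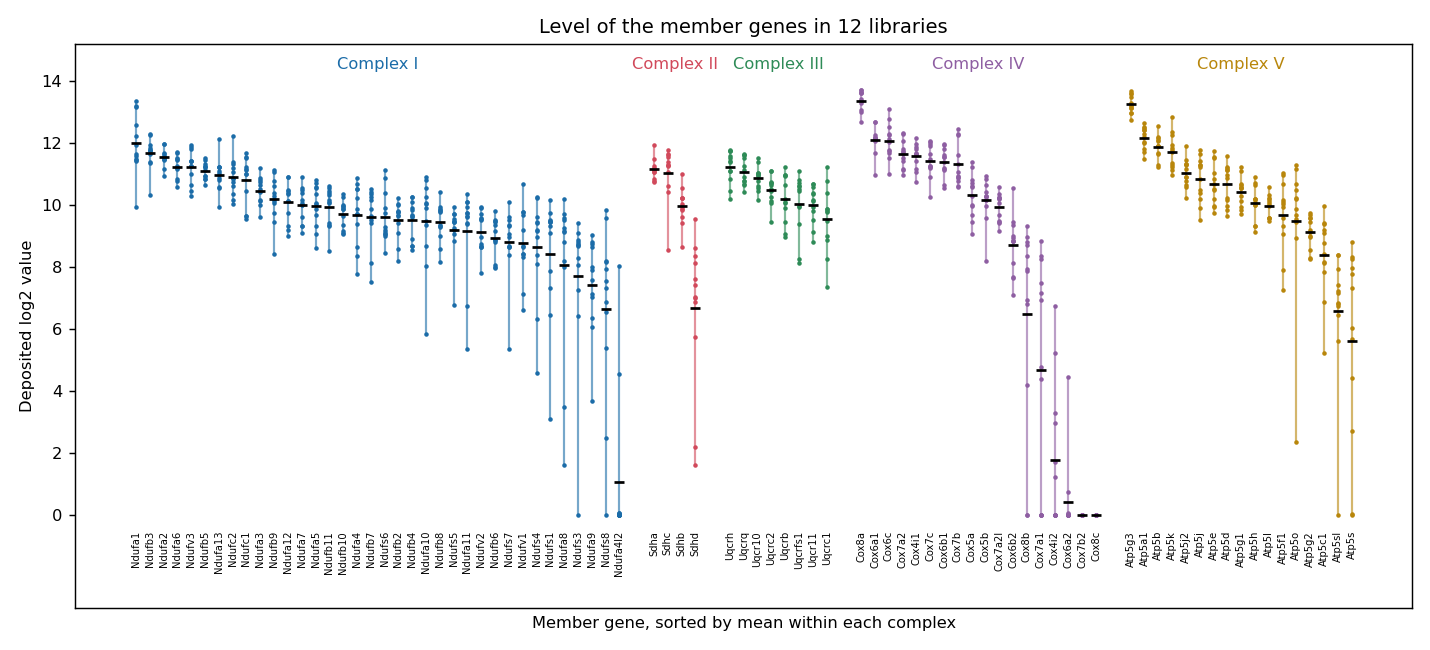
Deposited log2 value (vertical axis) of the genes, 1 of the 84 left out, grouped by complex and sorted by mean. Each point is 1 library, the vertical line spans the 12 libraries and the black bar is their mean. Cox8a at 13.37 and Atp5g3 at 13.25 had the highest means. Some long lines at low means belong to genes that had no reads in some libraries, and others, such as that of Sdhd, to genes with reads in all 12.

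Complex I, the NADH dehydrogenase, had its highest means in 3 small accessory subunits, Ndufa1 at 12 ± 0.98, Ndufb3 at 11.67 ± 0.51 and Ndufa2 at 11.55 ± 0.29 (SD, n = 12). The 7 nuclear core subunits form the arm that takes electrons from NADH. Setting them apart was chosen after their values were seen. Per kilobase of coding sequence, the median level of these core genes was 8.81 on the log2 scale. It was 11.27 for the 29 other tested genes of complex I. Undivided by length, the medians of the means were 8.78 and 9.94, and the median coding lengths were 789 and 393 nt. The part of length in this gap was not tested. Core genes also varied more between libraries: the SD within groups had a median of 1.26 and exceeded 1 in 5 of 7, against 0.70 and 6 of 29. Across all features this SD was larger at lower means, with a median of 1.2 at means of 8 to 9 and 0.64 at means of 10 to 11, so level and spread moved together.

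Complex II, succinate dehydrogenase, has 4 subunits, all nuclear. Sdha, the flavoprotein, averaged 11.16 ± 0.32 and Sdhb, the iron-sulfur subunit, 9.97 ± 0.59 (SD, n = 12). The membrane anchors behaved differently from each other. Sdhc averaged 11.04 ± 0.88, and Sdhd averaged 6.68 ± 2.44 with its lowest values, 1.62 and 2.19, in AD_B6 replicate 3 and SJL_B6 replicate 1. Complex III, the cytochrome bc1 complex, was led by 3 small subunits: Uqcrh, the hinge protein, at 11.25 ± 0.52, Uqcrq at 11.09 ± 0.44 and Uqcr10 at 10.88 ± 0.38. No gene of complex III had a within-group SD over 1; the largest was 0.99.

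Complex V, ATP synthase, had the catalytic-head genes Atp5a1 at 12.17 ± 0.36 and Atp5b at 11.89 ± 0.38 among its highest means (SD, n = 12). The c subunit of the membrane ring is encoded by 3 genes whose mature proteins are the same. Atp5g3 averaged 13.25 ± 0.29, Atp5g1 10.44 ± 0.47 and Atp5g2 9.12 ± 0.52. Atp5g3 was above Atp5g1, and Atp5g1 above Atp5g2, in every library. Per kilobase of coding sequence the means were 14.52 for Atp5g3, 11.80 for Atp5g1 and 10.39 for Atp5g2.

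Between complexes, the level per coding kilobase on the log2 scale had a median of 13.00 for 14 tested genes of complex IV, 12.33 for 8 of complex III, 11.60 for 16 of complex V, 11.06 for 36 of complex I and 10.26 for 4 of complex II. The ranges overlapped, from 7.75 to 14.53 in complex I and from 8.95 to 15.68 in complex IV. Genes of complexes III and IV are also the shortest, with median coding lengths of 300 and 262.5 nt, against 439.5 nt in complex I, 460.5 nt in complex V and 676.5 nt in complex II. Undivided by length, the medians of the means were 11.35 for IV, 10.51 for II, 10.44 for V, 10.355 for III and 9.66 for I. Complex II was then no longer the lowest, so the order depended on the division by length. Whether the kit reads whole transcripts or their ends is not settled by the labels, and the part of length in either order was not tested.

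Complex IV, cytochrome c oxidase, held the highest gene of all, Cox8a at 13.37 ± 0.32, followed by Cox6a1 at 12.10 ± 0.45 and Cox6c at 12.08 ± 0.57 (SD, n = 12). It also held the clearest contrasts between paired isoforms, and the promoters of 5 isoform genes are shown so that each can be read beside its values. The sequences are RefSeq's on GRCm38.p6, from 250 bases before to 50 after the first listed start, 5′ to 3′ on the gene's strand. Capitals mark every match, on either strand, to the motifs of ETS and GABP, NRF1, YY1, SP and KLF, NF-Y and nuclear receptors, and to the TATA box. Their letters are given as each comes up. Cox8a lies on the minus strand at chr19:7217567-7217866, Cox8b on the minus strand at chr7:140900397-140900696, Cox7a2 on the minus strand at chr9:79759804-79760103, Cox7a1 on the plus strand at chr7:30183921-30184220 and Cox6a1 on the minus strand at chr5:115348909-115349208.
Cox8a: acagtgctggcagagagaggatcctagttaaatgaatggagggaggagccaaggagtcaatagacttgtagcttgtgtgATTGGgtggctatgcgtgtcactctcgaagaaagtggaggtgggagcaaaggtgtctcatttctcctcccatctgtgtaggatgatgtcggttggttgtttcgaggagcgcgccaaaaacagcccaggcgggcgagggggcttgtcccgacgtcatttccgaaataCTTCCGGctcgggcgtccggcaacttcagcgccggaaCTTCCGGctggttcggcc
Cox8b: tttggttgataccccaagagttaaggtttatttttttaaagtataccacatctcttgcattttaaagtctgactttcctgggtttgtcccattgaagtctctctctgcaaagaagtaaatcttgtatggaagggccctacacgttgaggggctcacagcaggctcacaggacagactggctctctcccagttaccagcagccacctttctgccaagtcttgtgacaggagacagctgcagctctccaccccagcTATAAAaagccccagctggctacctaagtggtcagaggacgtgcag
Cox7a2: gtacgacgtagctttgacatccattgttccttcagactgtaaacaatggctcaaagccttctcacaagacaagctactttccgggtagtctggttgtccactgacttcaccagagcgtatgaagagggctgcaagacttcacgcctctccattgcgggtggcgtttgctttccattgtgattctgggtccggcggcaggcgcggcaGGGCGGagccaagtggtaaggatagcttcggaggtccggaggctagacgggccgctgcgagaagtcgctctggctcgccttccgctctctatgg
Cox7a1: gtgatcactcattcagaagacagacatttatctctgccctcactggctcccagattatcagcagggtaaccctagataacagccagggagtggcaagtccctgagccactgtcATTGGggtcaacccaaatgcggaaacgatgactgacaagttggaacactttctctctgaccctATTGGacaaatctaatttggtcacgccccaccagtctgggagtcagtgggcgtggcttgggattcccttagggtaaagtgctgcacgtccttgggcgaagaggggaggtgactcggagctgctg
Cox6a1: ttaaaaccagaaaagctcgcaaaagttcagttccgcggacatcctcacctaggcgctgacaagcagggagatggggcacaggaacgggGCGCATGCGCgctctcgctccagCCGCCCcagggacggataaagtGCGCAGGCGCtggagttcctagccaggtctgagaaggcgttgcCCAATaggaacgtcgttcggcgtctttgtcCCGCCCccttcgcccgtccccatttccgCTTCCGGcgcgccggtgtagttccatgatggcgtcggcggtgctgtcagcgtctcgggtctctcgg

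With the start base as position 0, Cox8a held the ETS and GABP motif, CCGGAAG, at positions -5 to 1 and 32 to 38, and the NF-Y motif, read as CCAAT, at -171 to -167. Cox8b held the TATA box letters, TATAAA, at positions 4 to 9 and none of the other motifs. Cox7a2 held the SP and KLF motif, GGGCGG, at -44 to -39, and Cox7a1 held the NF-Y motif at -137 to -133 and -74 to -70. Cox6a1 held the NRF1 motif at -162 to -153 and -117 to -108, the ETS and GABP motif at -16 to -10, the SP and KLF motif at -139 to -134 and -44 to -39, and the NF-Y motif at -74 to -70. In these 5 windows no 2 matches overlap. A match is a description of letters, not a binding site.

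Cox8a, the broadly expressed form of subunit 8, read 13.43, 13.08, 12.67 and 13.62 in SJL_B6, 13.73, 13.65, 13.01 and 13.61 in AD_B6, and 13.35, 13.35, 13.30 and 13.70 in AD_TG. Cox8b, the form known from heart, muscle and brown fat, read 7.87, 8.73, 7.94 and 0 in SJL_B6, 6.82, 4.21, 8.96 and 9.34 in AD_B6, and 6.95, 8.81, 0 and 8.35 in AD_TG. Cox8a was higher in 12 of 12 libraries, and Cox8b had reads in 10, without a group in which it was absent. Cox7a2, the broadly expressed form of subunit 7a, lay between 10.96 and 12.32. Cox7a1, its heart and muscle form, read 4.40, 0, 6.94 and 0 in SJL_B6, 7.17, 4.79, 0 and 8.84 in AD_B6, and 8.38, 7.49, 0 and 8.26 in AD_TG. Its reads were in 8 libraries, 2 of SJL_B6 and 3 of each other group, and the groups overlapped.

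The remaining pairs followed the same order in all 12 libraries. Cox4i1, with values of 10.76 to 12.16, was above Cox4i2, a form known from lung, which had reads in 6 libraries and reached 6.76. Cox6a1 was above Cox6a2, the heart and muscle form, whose reads were in 2 libraries, both of SJL_B6. Ndufa4 was above Ndufa4l2, a paralog induced by low oxygen in other cells, whose reads were in 1 library of SJL_B6 and 1 of AD_B6. Cox6b2, described mainly in testis, was the exception in detection: it had reads in 12 of 12 libraries at 8.70 ± 0.93 (SD, n = 12), against 11.38 ± 0.46 for Cox6b1. In AD_TG replicate 1 Cox6b2 read 10.54 and Cox6b1 11.13. Markers of tissues that make these heart and muscle forms were uneven. Of 8 skeletal muscle markers, Acta1 had reads in 12 libraries, up to 8.34, and Atp2a1 in 8, up to 8.43. The myosin and contractile genes Myh4, Tnnt3 and Mylpf had reads in 2 libraries each, Ckm and Myh1 in 1 each and Myh2 in 0. Their summed share of the linear total was 0.000217 to 0.00634% in SJL_B6, 6.71e-05 to 0.00418% in AD_B6 and 0.0014 to 0.00729% in AD_TG. Of 4 brown fat markers, Cidea had reads in 8 libraries, up to 8.03, Adipoq in 3, and Ucp1 and Plin1 in 1 each, with shares of up to 0.00331, 0.00448 and 0.00297% in the same order of groups. The Ucp1 library was AD_B6 replicate 1, where Cox7a1 was 7.17 and Cox8b 6.82. Their part in the isoform values was not tested.

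**Figure D2:**
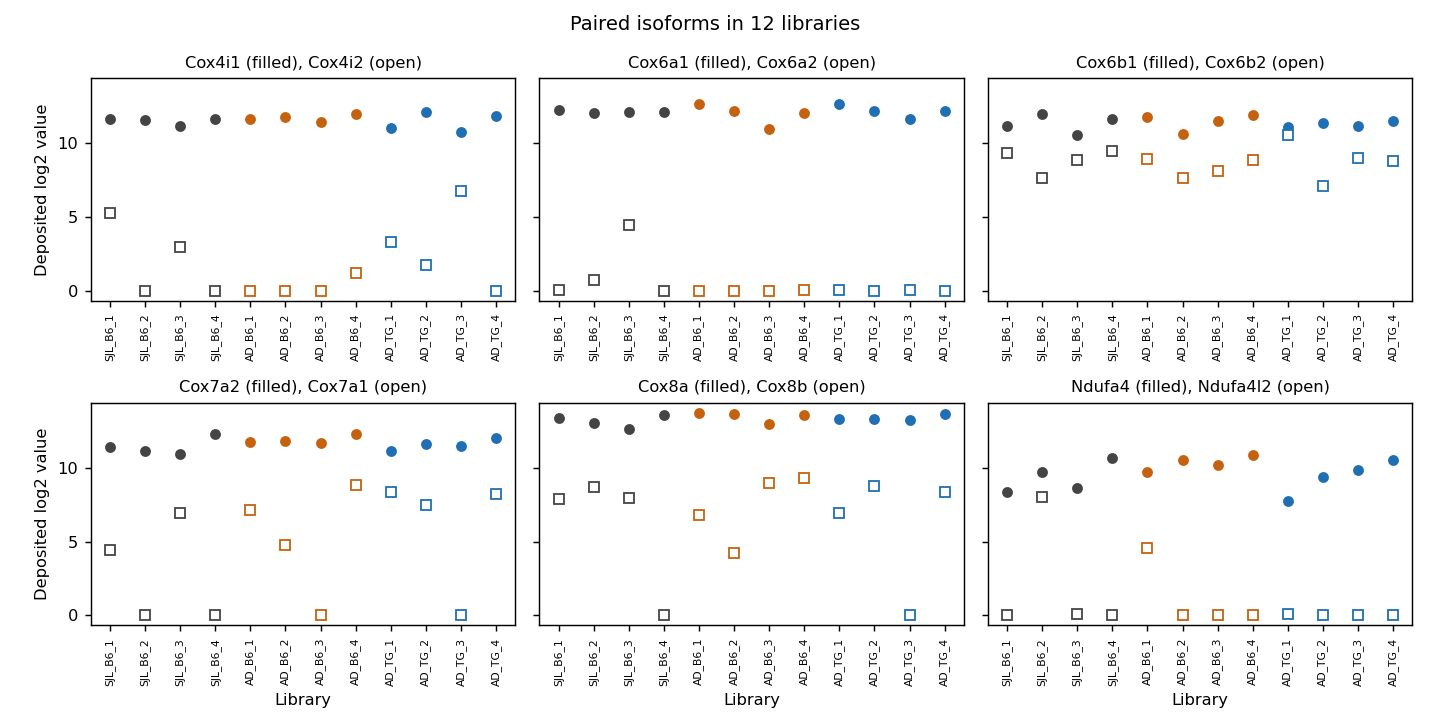
Deposited log2 value (vertical axis) of 6 isoform pairs in each library (horizontal axis), with colours for the groups. Filled points are the first gene of each pair and open squares the second; the filled point is the higher in every library of every pair, and Cox6b2 is the second gene with reads in all 12.

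Across the promoters of 69 matched genes, 16 (23.2%) held the NRF1 motif, against 4.78% of the 27025 genes in the RefSeq table and 10.5% of the 9081 matched features tested. The ETS and GABP motif was in 15 of 69 (21.7%), against 9.12% of all genes and 17.8% of tested features. The YY1 motif, AAGATGG, was in 11 of 69 (15.9%), against 6.48 and 7.09%. These are the letters of factors known to act on respiratory chain genes, and 37 of 69 promoters (53.6%) held at least 1 of them, against 18.4% of all genes and 31.2% of tested features. The nuclear receptor motif, searched as AAGGTCA, was in 8 of 69 (11.6%), against 4.66 and 3.19%. The SP and KLF motif was in 28 of 69 (40.6%), above the 35.9% of all genes and below the 65.2% of tested features. By complex, the NRF1 motif was in 7 of 32 promoters of complex I, 2 of 3 of complex II, 1 of 5 of complex III, 1 of 13 of complex IV and 5 of 16 of complex V. The NF-Y motif was in 31 of 69 (44.9%), against 37.9 and 38.2%, and the TATA box in 7 of 69 (10.1%), against 14.2 and 7.21%.

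The comparison of AD_B6 with SJL_B6 asks how the libraries titled AD differ from those titled SJL. The oxidative phosphorylation genes had a median difference of 0.07 (log2), with 43 of 79 tested genes higher in AD_B6 (54.4%). By limma's test, 0 of 79 passed an adjusted p of 0.05, where 0 of 11955 features passed (0%). An unadjusted p under 0.05 was found for 0 of 79 genes, against 5.41% of all features. At means of 8 or more it was found for 0 of 71 genes, against 3.97% of features. All features had a median of -0.31, with 40.2% higher in AD_B6. The 3775 features with a mean of 8 or more had a median of -0.10 and the 71 genes at that level 0.10. With each library's mean subtracted, the medians were 0.54 for the genes and 0.16 for all features, so the place of zero depended on the scaling. Without AD_B6 replicate 3 the genes' median was 0.18 on the deposited scale. By complex the medians were -0.01 for I, -0.16 for II, 0.11 for III, 0.18 for IV and 0.02 for V.

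Atp5s, also called factor B of ATP synthase, had the lowest p of the 79 in this comparison. It read 5.70, 8.33, 7.34 and 7.96 in SJL_B6 and 0, 8.81, 2.72 and 0.03 in AD_B6. Its AD_B6 libraries were both the highest and the lowest of the 8, so the groups overlapped, and the difference was -4.44 (SE 2.17, adjusted p = 0.869), or -2.57 with a pseudocount of 10. Atp5o, the stalk subunit that confers oligomycin sensitivity, read 10.70, 9.69, 9.57 and 10.23 in SJL_B6 and 9.48, 9.88, 2.37 and 11.31 in AD_B6. The difference of -1.79 (SE 1.16, adjusted p = 0.869) rested on AD_B6 replicate 3, and without that library it was 0.17. It was -2.81 without AD_B6 replicate 4 and -0.83 after quantile normalization. Atp5o shares bases with Donson on the same strand, which averaged 4.81. Sdhc read 8.54, 11.07, 10.62 and 11.55 in SJL_B6 and 10.41, 11.38, 11.64 and 11.77 in AD_B6, a difference of 0.86 (SE 0.50, adjusted p = 0.869). Ndufc1, an accessory subunit of complex I, averaged 10.49 ± 1.04 in SJL_B6 libraries and 11.34 ± 0.32 in those of AD_B6 (SD, n = 4), and differed by 0.84 (SE 0.49, adjusted p = 0.869). Both overlapped between the groups, and without SJL_B6 replicate 1, the low library of Sdhc, the differences were 0.22 for Sdhc and 0.56 for Ndufc1. Ndufc1 differed by 0.53 without SJL_B6 replicate 3.

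Ndufs7 was the 1 gene whose groups did not overlap in this comparison, where 0.912% of all features did so in that direction. This core subunit of complex I read 9.07, 8.98, 8.65 and 8.66 in SJL_B6 and 9.33, 10.12, 9.37 and 9.62 in AD_B6. Every AD_B6 library was above every SJL_B6 library, with a difference of 0.77 (SE 0.81, adjusted p = 0.927). In the other direction no gene was without overlap, where 1.91% of all features were.

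The comparison of AD_TG with AD_B6 sets the libraries with TG in the second part of the title against those with B6. The genes had a median difference of -0.10, with 35 of 79 higher in AD_TG (44.3%), while all features had a median of 0.41, with 62.8% higher. By limma's test 0 of 79 passed, beside 0 of 11955 features (0%). An unadjusted p under 0.05 was found for 0 of 79 genes, against 5.35% of all features. At means of 8 or more it was found for 0 of 71 genes, against 3.6% of features. With each library's mean subtracted the medians were -0.73 and -0.22. The first comparison and this one share the AD_B6 libraries, among them replicate 3, without which the genes' median here was -0.24. By complex the medians were -0.10 for I, 0.20 for II, -0.26 for III, -0.09 for IV and -0.04 for V.

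Ndufs7 read 9.51, 8.41, 5.36 and 8.68 in AD_TG, a difference of -1.62 from AD_B6 (SE 0.81, adjusted p = 0.871), with the lowest value in replicate 3, and without that library the difference was -0.74. Uqcrc1, a core protein of complex III, read 9.82, 11.24, 9.49 and 9.78 in AD_B6 and 9.87, 9.0, 8.87 and 7.35 in AD_TG. Its difference was -1.31 (SE 0.68, adjusted p = 0.871), and AD_TG replicate 1 lay inside the AD_B6 range; without AD_TG replicate 4 it was -0.84. Ndufb7, an accessory subunit of complex I, read 9.87, 10.37, 7.52 and 8.13 in AD_B6 and 9.64, 10.52, 10.42 and 10.18 in AD_TG, a difference of 1.22 (SE 0.63, adjusted p = 0.871). The AD_B6 values formed a high and a low pair, and the high pair overlapped AD_TG; without AD_B6 replicate 3 the difference was 0.74, and with library means subtracted 0.59. Atp5s, with 6.04, 7.79, 8.28 and 4.42 in AD_TG, differed by 3.74 (SE 2.17, adjusted p = 0.871), or by 1.97 with a pseudocount of 10, 1.63 after quantile normalization and 5.71 without AD_B6 replicate 2. No gene had groups without overlap here, where 1.95% of all features were higher and 0.928% lower in AD_TG without overlap.

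The comparison of AD_TG with SJL_B6 shares samples with both others. The median difference of the genes was 0.01, with 40 of 79 higher in AD_TG (50.6%), beside 0.08 and 53.3% for all features. By limma's test 0 of 79 passed, beside 0 of 11955 (0%). An unadjusted p under 0.05 was found for 0 of 79 genes, against 2.99% of all features. At means of 8 or more it was found for 0 of 71 genes, against 2.04% of features. By complex the medians were -0.15 for I, 0.37 for II, -0.02 for III, 0.05 for IV and 0.06 for V. Complex II was the highest, but it rests on 4 genes, of which Sdhc differed by 0.92 and Sdhb by -0.55.

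Sdhc read 11.30, 11.29, 11.26 and 11.62 in AD_TG, a difference of 0.92 from SJL_B6 (SE 0.50, adjusted p = 0.999). SJL_B6 replicates 2 and 4 lay close to these values, at 11.07 and 11.55, and without the low replicate 1 the difference was 0.29. Atp5d, the delta subunit of ATP synthase, read 9.84, 10.24, 10.18 and 11.58 in SJL_B6 and 11.12, 11.15, 10.96 and 11.22 in AD_TG, a difference of 0.65 (SE 0.47, adjusted p = 0.999). Its SJL_B6 replicate 4 was above every AD_TG library, and without it the difference was 1.03. Ndufa13, also known as GRIM-19, averaged 10.60 ± 0.49 in AD_TG and 11.20 ± 0.66 in SJL_B6, a difference of -0.60 (SE 0.41, adjusted p = 0.999), or -0.29 without SJL_B6 replicate 4 and -0.38 without AD_TG replicate 3. Uqcrc1 averaged 9.83 ± 1.11 in SJL_B6 libraries against 8.77 ± 1.05 in those of AD_TG (SD, n = 4), and differed by -1.05 (SE 0.68, adjusted p = 0.999), or by -0.58 without AD_TG replicate 4. Ndufa11, a membrane-arm subunit of complex I, was the 1 gene without overlap, where 1.07% of all features were lower in AD_TG without overlap and 1.46% higher. It read 9.75, 9.65, 10.11 and 10.36 in SJL_B6 and 9.62, 9.42, 6.74 and 9.38 in AD_TG, a difference of -1.18 (SE 0.89, adjusted p = 0.999). The gap between its groups was small beside AD_TG replicate 3, which lay far below the other AD_TG libraries and without which the difference was -0.50. Ndufa11 and Ndufa13 overlap Vmac and Tssk6 on the opposite strand, which averaged 2.52 and 0. Whether the counting used strand is not given in the sources used here, so reads of overlapping genes cannot be told apart.

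**Figure D3:**
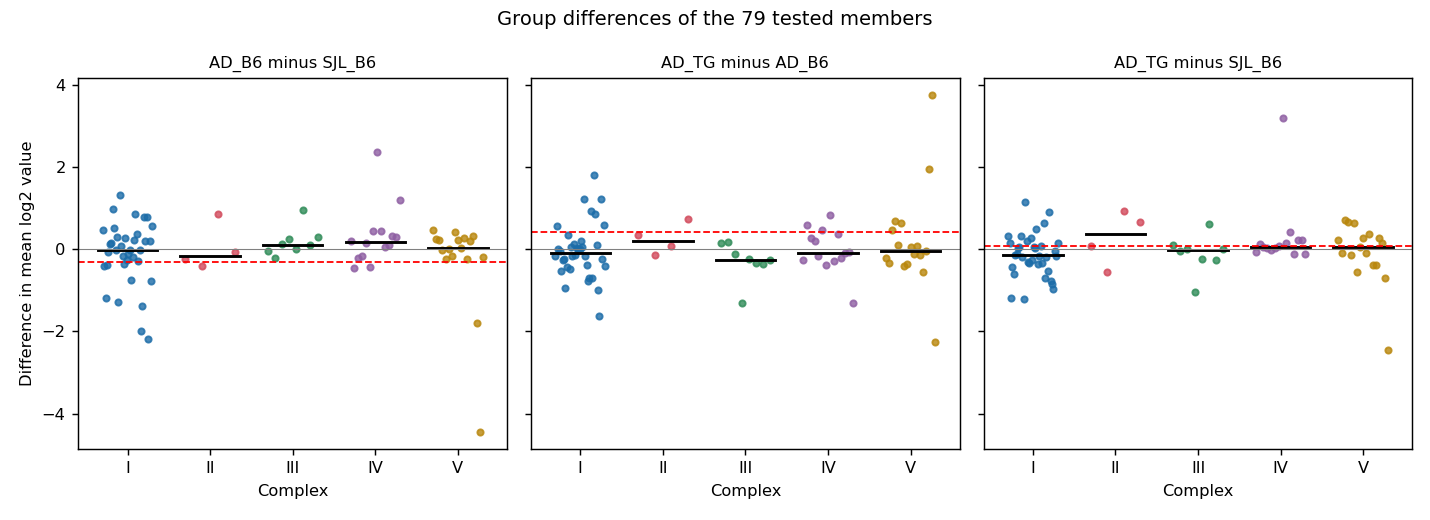
Difference in mean log2 value (vertical axis) of the 79 tested genes by complex (horizontal axis) for the 3 comparisons. Each point is a gene, the black bar is the median of a complex and the red dashed line is the median of all 11955 features, at -0.31, 0.41 and 0.08; the medians of complexes I, III, IV and V lie within 0.26 of zero in every panel.

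The genes were measured more tightly than the average feature, which sets what these comparisons could show. The 95% interval of a group difference had a median reach of 1.10 (log2) to either side, a factor of 2.14, against 3.85, a factor of 14.5, over all features. The within-group SD exceeded 1 for 20 of 79 genes (25.3%), against 80.6% of all features. At matched levels this gap was smaller: at means of 9 to 10 the median SD was 0.71 for 22 genes and 0.85 for 1210 features, and at 10 to 11 it was 0.66 and 0.64. The tightest named genes were Atp5g3 and Ndufa2, each with a within-group SD of 0.29, Sdha at 0.32 and Cox8a at 0.33. For Cox8a the 95% interval ran from -0.20 to 0.79 for AD_B6 against SJL_B6, from -0.57 to 0.42 for AD_TG against AD_B6 and from -0.27 to 0.72 for AD_TG against SJL_B6.

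For some of the genes, the spread within groups followed the number in the library titles, a pattern chosen after the values were seen. Nothing in the labels says what a number marks. The shares of all features in this paragraph are not matched for level. Of the 11955 features, 5169 had a mean below 6, whereas 71 of the 79 genes had a mean of 8 or more. Of the 79 genes, 8 (10.1%) were higher in the library numbered 4 than in the 3 others of its group, in all 3 groups and with no overlap between numbers, against 0.535% of all features. Ndufa1 read 13.36, 13.20 and 13.17 in the libraries numbered 4 of SJL_B6, AD_B6 and AD_TG, and 9.95 to 12.57 in the other 9. The other genes were Cox6c, Cox7b, Cox7c, Cox7a2, Atp5j, Atp5e and Uqcr10. Cox7b, a small subunit of complex IV, read 12.26, 12.31 and 12.47 in these libraries and 10.58 to 11.62 in the others. Ndufa8, Ndufs4 and Atp5c1 (3.8%) were lowest in the libraries numbered 3 in the same way, against 0.393% of all features. Ndufa8, an accessory subunit of complex I, read 8.01, 1.62 and 3.5 there and 8.19 to 10.19 elsewhere. Cox6a1 was highest in the libraries numbered 1 and Cox6b2 lowest in those numbered 2, 1 gene each (1.27%), against 0.577 and 0.652% of all features. The 4 other patterns held no member, where 0.309% of all features were lowest in number 1, 0.778% highest in number 2, 0.351% highest in number 3 and 0.368% lowest in number 4.

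**Figure D4:**
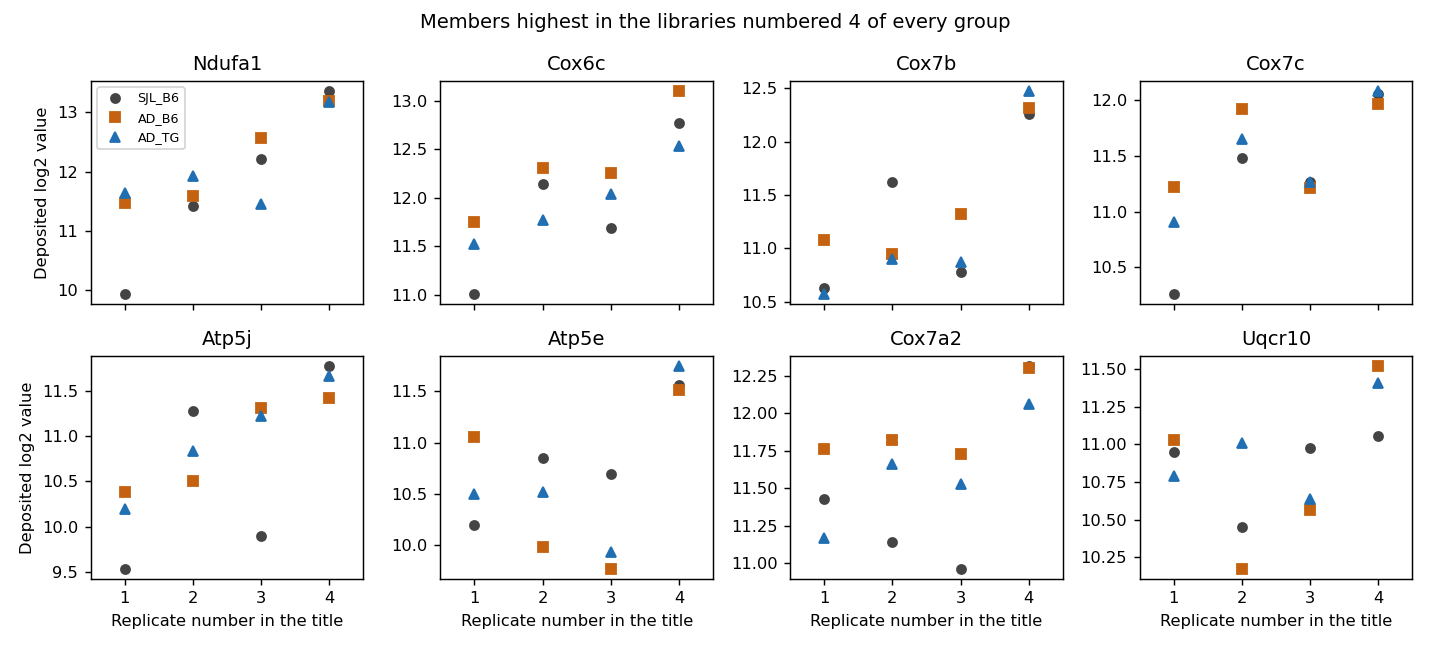
Deposited log2 value (vertical axis) of the 8 genes that were highest in the library numbered 4 of every group, by the number in the title (horizontal axis), with a symbol for each group. The points at number 4 lie above all other points of each panel, for Ndufa1 at 13.17 to 13.36.

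The library number was also entered in the limma fit beside the group. By its F test 0 of 11955 features (0%) passed after adjustment, and the lowest adjusted p was 0.722. Ndufa1, with the lowest unadjusted p of all features by this test (0.000123), was among the features at that adjusted value. At an unadjusted p under 0.05 there were 16 of 79 members (20.3%), against 5.2% of all features, and at means of 8 or more 16 of 71 (22.5%), against 7.66%. Without SJL_B6 replicate 4 the number of members was 7, where 4.69% of all features had such a p. The cause was not tested.

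The 8 genes have short coding sequences, so deviations were also set out by coding length, again after seeing the values. Among genes with a mean of 8 or more, the 17 with under 300 nt of coding sequence deviated from their own means by a median of 0.53, 0.64 and 0.49 in the libraries numbered 4 of SJL_B6, AD_B6 and AD_TG. In the libraries numbered 1 these medians were -0.23, 0.01 and -0.36. The 100 other features of that length deviated by 0.36, 0.29 and 0.34 in the libraries numbered 4, and by -0.10, 0.17 and -0.19 in those numbered 1. In the libraries numbered 2 these features deviated by 0.32, 0.12 and 0.02, and the 17 members by 0.06, 0.27 and -0.01. In those numbered 3 the values were -0.23, -0.12 and 0.07 for these features, and -0.45, 0.07 and -0.24 for the members. In the libraries numbered 4, the 26 members from 300 to under 450 nt deviated by 0.44, 0.38 and 0.27, the 18 from 450 to under 900 nt by 0.20, 0.41 and 0.50, and the 10 of 900 nt or more by -0.23, 0.23 and 0.11. These medians were lower from class to class in SJL_B6 replicate 4, but not evenly in AD_B6 and AD_TG. The other features of the middle classes deviated by 0.27, 0.03 and 0.16, and by 0.16, 0.06 and 0.17. The 2501 other features of 900 nt or more deviated by 0.13, 0.08 and 0.15 in the libraries numbered 4. Over all 12 libraries their medians were 0.006 to 0.249, so these medians are not centred on 0. In the class under 300 nt, the other features deviated in the same direction as the members in those libraries, by less, and the part of length in the pattern was not tested further. Classes of 17, 18 and 10 genes are small.

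**Figure D5:**
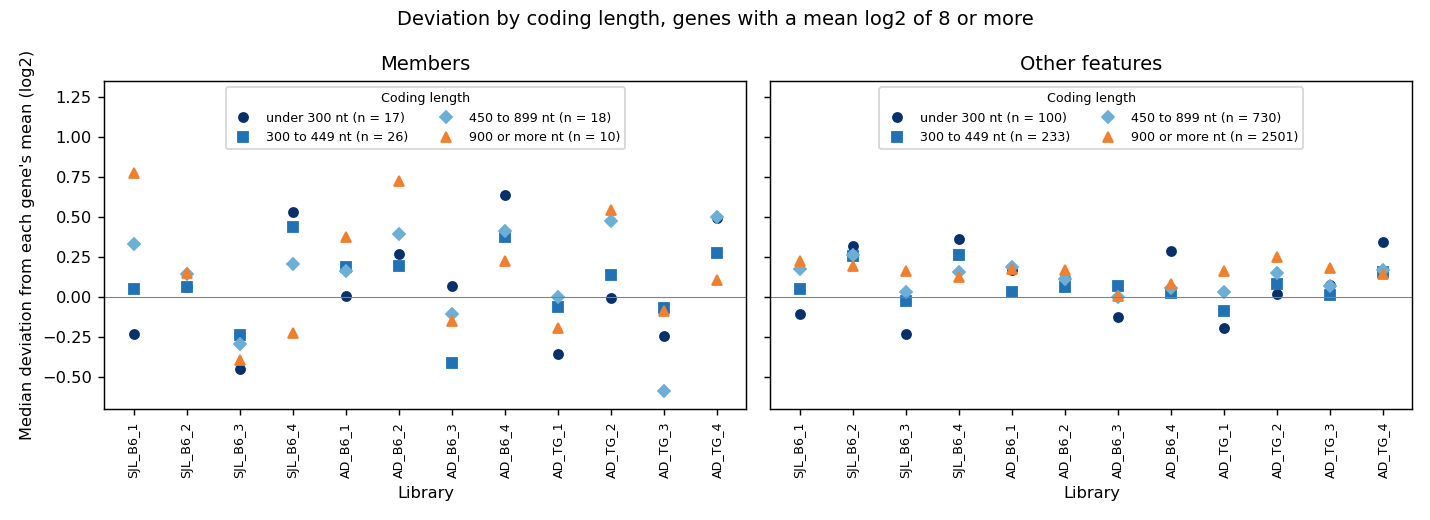
Median deviation from each gene's mean (vertical axis, log2) per library (horizontal axis) in 4 classes of coding length, for the oxidative phosphorylation genes (left) and other features (right) with a mean of 8 or more. Genes under 300 nt lie at 0.49 to 0.64 on the left and 0.29 to 0.36 on the right in the libraries numbered 4.

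In AD_B6 replicate 3, 7 of 71 genes whose means reached 8 (9.86%) read below 6, beside 7.79% of all features at that level. In AD_TG replicate 3 there were 2 (2.82%), Ndufa8 among them at 3.5, beside 1.06% of all features at that level. In the other 10 libraries there were 0, beside 0.636 to 3.15% of all features. Atp5o at 2.37, Ndufa8 at 1.62, Ndufs1 at 3.12 and Ndufs4 at 4.59 were among those in AD_B6 replicate 3.

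Other genes of the pathway gave no call either, and their lists are given beside the members. Of 39 tested assembly factors, 0 passed limma's test in any comparison and 1, 2 and 3 had an unadjusted p under 0.05 in the 3 comparisons, taken in the order above (2.56, 5.13 and 7.69% of the list, where 5.41, 5.35 and 2.99% of all features had such a p). Their highest gene was Cox17, the copper chaperone of complex IV, at 10.44 ± 1.85 (SD, n = 12), with 5.45 in SJL_B6 replicate 1 and 8.20 to 12.01 elsewhere. Of 15 genes for electron carriers and exchange, 0 passed and 0 had an unadjusted p under 0.05; Slc25a3, the phosphate carrier, was the highest at 12.56 ± 0.24. Of 18 tricarboxylic acid cycle genes, 0 passed and 0, 1 and 0 had an unadjusted p under 0.05 (0, 5.56 and 0%). Of 14 regulators of mitochondrial biogenesis, 0 passed and 1, 1 and 1 had an unadjusted p under 0.05 (7.14% each), with the nuclear receptor gene Esrra highest at 9.05 ± 1.30. Of 15 glycolysis genes, 0 passed and 1, 2 and 0 had an unadjusted p under 0.05 (6.67, 13.3 and 0%), with the pyruvate kinase gene Pkm highest at 12.20 ± 0.56. The choroid plexus markers, which passed in 0 of 8 genes in each comparison, had medians of -0.14, 1.18 and 1.04 in the same order, where the medians of the oxidative phosphorylation genes were 0.07, -0.10 and 0.01. Their summed share of the linear total was 0.292 to 6.53% in SJL_B6, 0.383 to 11.1% in AD_B6 and 2.0 to 8.17% in AD_TG, and their part in the members' values was not tested.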

How the data were processed

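RNA of 12 libraries was measured with a Lexogen QuantSeq kit from 500 ng of total RNA each, per the labels' protocols. The authors deposited log2 values, log2(x + 1) of scaled amounts per gene symbol, and the scaling is not given in the sources used here. Per the submitters' processing notes, Bowtie2 and bedtools were used with hg19, a human build, although the organism and symbols are mouse, so no coordinates of the files were used. How reads that fit several genes or pseudogenes were assigned is not given in the sources used here. Each file held 23282 entries, and for 35 symbols with several entries the one with the highest mean was kept, which left out 44. A gene had reads at a linear value of 0.3 or more, and depth was estimated as the linear total over the value of 1 read.

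Features that reached a linear value of 10 in 4 or more libraries numbered 11955, 79 of the 84 members among them. Their log2 values entered 1 two-sided fit over all 12 libraries (lmFit and eBayes with trend, limma 3.58.1, R 4.3.3). The 5 others are Cox4i2, Cox6a2, Cox7b2, Cox8c and Ndufa4l2. Benjamini-Hochberg adjustment covered all features of a comparison, with a threshold of 0.05. The fit was tried on the deposited values shuffled between libraries within each feature, with known shifts added to some. The outcome of that trial is not given here. Filtering on 4 libraries lets a gene pass through 1 group. Coding lengths came from GENCODE annotation of GRCm38, since no protein table was used here, and 1 tested gene, Atp5sl, had none. Promoters came from RefSeq on GRCm38.p6, and 69 of 84 members matched, 3 of them by synonym.

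The members, the other gene lists and the tests were chosen with earlier results of these data known. Genes were named by rule: the 3 highest means per complex and all of complex II, the 2 lowest p-values per direction and comparison, the paired isoforms, and the highest gene of each other pathway list. Ndufs7 and Ndufa11 as genes without overlap, and the genes named by library number or low value, were chosen after their values were seen. Not reported here are 1 member and 1 gene of another list. Alternatives were the pseudocount, 2 filters, 2 scalings, the replicate block, a fit of 8 libraries and each library left out.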

Additional observations from a re-analysis of the deposited data

Results flagged for a closer look

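There were 117 groups of 4 libraries, covering the 36 members named by rule and 3 library measures. Of these, 13 held a value far from the other 3 by Dixon's test. Chance gives about 1 in 20 groups where values are normally distributed. That rate does not hold for groups with 3 values at 0, where any value above 0 is marked. Groups with all 4 values at 0 were counted but could not be marked. Values below 1 read were set to 0, and 6 of the 13 belong to genes at 0 in part of the 12 libraries.

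In SJL_B6, Cox4i1 was 11.16 in replicate 3, against 11.62 to 11.67 in the others. Cox6a2 was 4.47 in replicate 3, against 0 to 0.75, Ndufa4l2 was 8.05 in replicate 2, against 0, and Cox8b was 0 in replicate 4, against 7.87 to 8.73. In AD_B6 replicate 3, the library with the fewest detected genes, Atp5g2 was 8.55, against 9.58 to 9.74, and Cox8a was 13.01, against 13.61 to 13.73. In AD_B6 replicate 4, Cox7a2 was 12.30, against 11.73 to 11.82, and Cox4i2 was 1.23, close to 1 read, against 0. In AD_B6 replicate 1, Ndufa13 was 10.83, against 11.22 to 11.24, and Ndufa4l2 was 4.56, against 0. In AD_TG, Cox7a1 was 0 in replicate 3, against 7.49 to 8.38. AD_TG replicate 4 had Cox8a at 13.70, against 13.30 to 13.35, and Sdhc at 11.62, against 11.26 to 11.30.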

How the results depend on the processing

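Under the 7 alternatives that keep all libraries or fit 8 of them, and with each of the 12 libraries left out, 0 features and 0 members passed limma's test in each comparison. The lowest adjusted p with a library left out was 0.0596, in AD_TG against AD_B6. The members' median difference moved with 1 scaling: with each library's mean subtracted it was 0.54 in the comparison of AD_B6 with SJL_B6 and -0.73 in that of AD_TG with AD_B6, where all features had 0.16 and -0.22. With 1 library left out it lay between -0.09 and 0.18, between -0.24 and 0.09, and between -0.16 and 0.09 in the 3 comparisons, so its sign is not stable. Of the 12 differences named for their p, 1 reversed without 1 library. Atp5o, at -1.79 for AD_B6 against SJL_B6, was 0.17 without AD_B6 replicate 3 and -2.81 without AD_B6 replicate 4, its extremes. Under the other alternatives 0 of 82 values reversed or passed. The 2 filters, the replicate block and the fit of 8 libraries cannot change a gene's difference in group means. A reversal could come only from the pseudocount and the 2 scalings.

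Over all features, deviations of same-numbered libraries correlated at -0.015 to 0.067 in 12 pairs, against -0.070 to 0.062 in 36 pairs with different numbers. Of the 11955 features, 5169 had a mean below 6, with a median within-group SD of 3.36. Shared deviations could be lost in that spread, so these values cannot tell whether the numbers pair the libraries. Over the members alone, deviations of same-numbered libraries correlated at -0.485 to 0.404, with a median of 0.145. In the 36 pairs with different numbers the range was wider, -0.488 to 0.619, with a median of 0.014. Between the libraries numbered 4 the members' correlations were -0.222, -0.228 and 0.371. With the replicate block, 0 features and 0 members passed. Each number occurs once in every group, so the block cannot change the members' medians of 0.07, -0.10 and 0.01. The count of members with an unadjusted p under 0.05 by library number ran from 7, without SJL_B6 replicate 4, to 17 with 1 library left out, where at most 1 feature passed after adjustment. A minimum of 3 reads in place of 1 left the median of detected members per library at 79. The detected values under 3 reads were Cox6a2 at 0.75 in SJL_B6 replicate 2 and Cox4i2 at 1.23 in AD_B6 replicate 4, both close to 1 read. In the first of these libraries the detected members fell from 80 to 79 with the minimum of 3 reads. In the second they fell from 79 to 78, and elsewhere the count was the same. The part of depth in the values of 0 was not tested.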
